A study of Mus musculus with 10 samples.

Results

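The genes described are 10 that mark Sertoli cells, the somatic cells that line the seminiferous tubule and surround the germ cells. They are Sox9, Wt1, Gata4 and Rhox5, which encode transcription factors, Fshr, which encodes the receptor for follicle-stimulating hormone, Cldn11, which encodes a claudin of the blood-testis barrier, and Clu, Cst9, Defb19 and Eppin, which encode secreted proteins. The 10 genes were chosen by symbol, with earlier KI against WT results of these libraries known, and all 10 were among the 15507 genes measured and among the 15389 that passed the filter on low counts. The RNA came from germ cells of 5 WT mice and 5 homozygous GRTH-KI mice, all 45 days old, with 1 library for each mouse. The KI allele is human GRTH bearing R242H, and the mouse gene of GRTH is Ddx25, which encodes an RNA helicase of male germ cells. Testes were dispersed with collagenase and trypsin and strained. The study names the result a germ cell fraction of spermatogonia, spermatocytes and spermatids, and the sample titles name testis. All 10 Sertoli genes had reads in all 10 libraries, from 191 reads in total for Fshr to 68723 for Clu.

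Sertoli cells support spermatogenesis by hormone sensing, by tight junctions and by secretion into the tubule. Sox9 sets the Sertoli fate in the fetal gonad, and Wt1 and Gata4 are needed to keep it. Follicle-stimulating hormone acts on the testis through Fshr on Sertoli cells, and androgen induces Rhox5, an X-linked homeobox gene. Cldn11 forms tight junction strands between neighbouring Sertoli cells. Clu encodes clusterin, a chaperone of the tubule fluid, Cst9 a member of the cystatin family of protease inhibitors, Defb19 a beta-defensin and Eppin a protease inhibitor that coats sperm.

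RefSeq promoter sequence (GRCm38.p6) was matched for 5 of the 10 genes, namely Cst9, Eppin, Cldn11, Fshr and Rhox5. Promoters of 3 of them are shown, each as the 250 bases before the annotated start. Cst9 is shown as the gene that differed most between the library numbers described below, Eppin as one whose genotype difference took opposite signs in them, and Fshr as the hormone receptor with the most motif matches. Capitals mark the letters GATAA (the core bound by GATA factors) or CACGTG (an E-box) on either strand.
Cst9, chr2:148834897-148835146, plus strand: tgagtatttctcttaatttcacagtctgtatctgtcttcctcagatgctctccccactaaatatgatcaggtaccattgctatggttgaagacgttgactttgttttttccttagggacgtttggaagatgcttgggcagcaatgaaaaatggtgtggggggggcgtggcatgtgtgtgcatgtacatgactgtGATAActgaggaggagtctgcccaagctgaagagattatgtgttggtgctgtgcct
Eppin, chr2:164593572-164593821, minus strand: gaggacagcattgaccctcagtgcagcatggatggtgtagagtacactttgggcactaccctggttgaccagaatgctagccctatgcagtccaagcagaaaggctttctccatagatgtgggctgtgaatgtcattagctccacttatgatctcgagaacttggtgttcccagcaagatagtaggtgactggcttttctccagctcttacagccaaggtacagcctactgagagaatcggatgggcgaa
Fshr, chr17:89200676-89200925, minus strand: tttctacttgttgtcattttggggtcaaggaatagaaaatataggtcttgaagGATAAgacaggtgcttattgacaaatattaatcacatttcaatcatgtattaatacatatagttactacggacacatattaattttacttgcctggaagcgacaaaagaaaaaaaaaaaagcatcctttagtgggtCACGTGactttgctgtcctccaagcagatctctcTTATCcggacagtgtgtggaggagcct
GATAA stood 56 bases before the start in Cst9, and in Fshr it stood 197 bases before the start and, on the other strand, 27 bases before it. CACGTG, which reads the same on both strands, stood 61 bases before the start of Fshr. GATAA was present in 22.6% of the 32851 mouse promoter windows of this length and CACGTG in 6.02%. AACAAT, a core bound by SOX factors (9.42% of windows), and AGAACA, a core bound by the androgen receptor (16.1%), overlapped on the minus strand in the Rhox5 window, 227 and 225 bases before the start. AGGTCA, a core bound by other nuclear receptors (14.0%), was in none of the 5 windows, and Cldn11 and Eppin held none of the 5 motifs. These matches are letters in a window and were not tested for binding.

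Genotypes were compared over all libraries and within 2 sets, libraries 1 to 3 and libraries 4 and 5, since libraries 4 and 5 of both genotypes have another mean read quality in the sequencing summary of the study. Gene positions are on mm10 as deposited, and all 10 genes are protein-coding. Values are normalized counts, the reads on a gene divided by the size factor of its library, and a log2 fold change is the difference of mean log2(normalized count + 1). Calls needed both a limma adjusted p under 0.05 and a change of 1.5-fold or more. Libraries held 13323024 to 16422347 reads on genes in WT and 12722086 to 15500582 in KI, and 3 reads were worth 2.61 to 3.62 normalized counts. Ddx25 ranged from 5198 to 11101 normalized counts in WT. In KI it was 146 to 194 in libraries 1 to 3 and 1.84 to 2.88 in libraries 4 and 5. These counts are of mouse Ddx25 on mm10, whereas the KI allele is human GRTH. How many reads of the human allele they hold was not tested. All KI libraries were below all WT libraries, and the KI sets also differed from each other. The cause of that difference was not tested. All sources of RNA are pooled in such a preparation, so fewer Sertoli cells and less RNA per Sertoli cell cannot be told apart for any of the 10 genes.

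On average the Sertoli genes were near their WT levels in KI over all libraries. They were above them in libraries 1 to 3 and, except Gata4, below them in libraries 4 and 5. Over all libraries 0 of the 10 were called by limma, edgeR or DESeq2, where limma called 14.4% of all genes. The genotypes overlapped for all 10 genes, while 17.7% of all genes did not overlap. The median log2 fold change of the 10 genes was 0.12, beside 0.03 over all genes tested. Within libraries 1 to 3 the median was 0.38, and within libraries 4 and 5 it was −0.31, beside 0.02 over all genes in each. For 9 of the 10 genes, all except Gata4, the KI mean was above the WT mean in libraries 1 to 3 and below it in libraries 4 and 5, a pattern that 16.5% of all genes had. The genes were chosen with the genotype contrast known, so these differences and calls are a description, given without p-values.

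**Figure D1:**
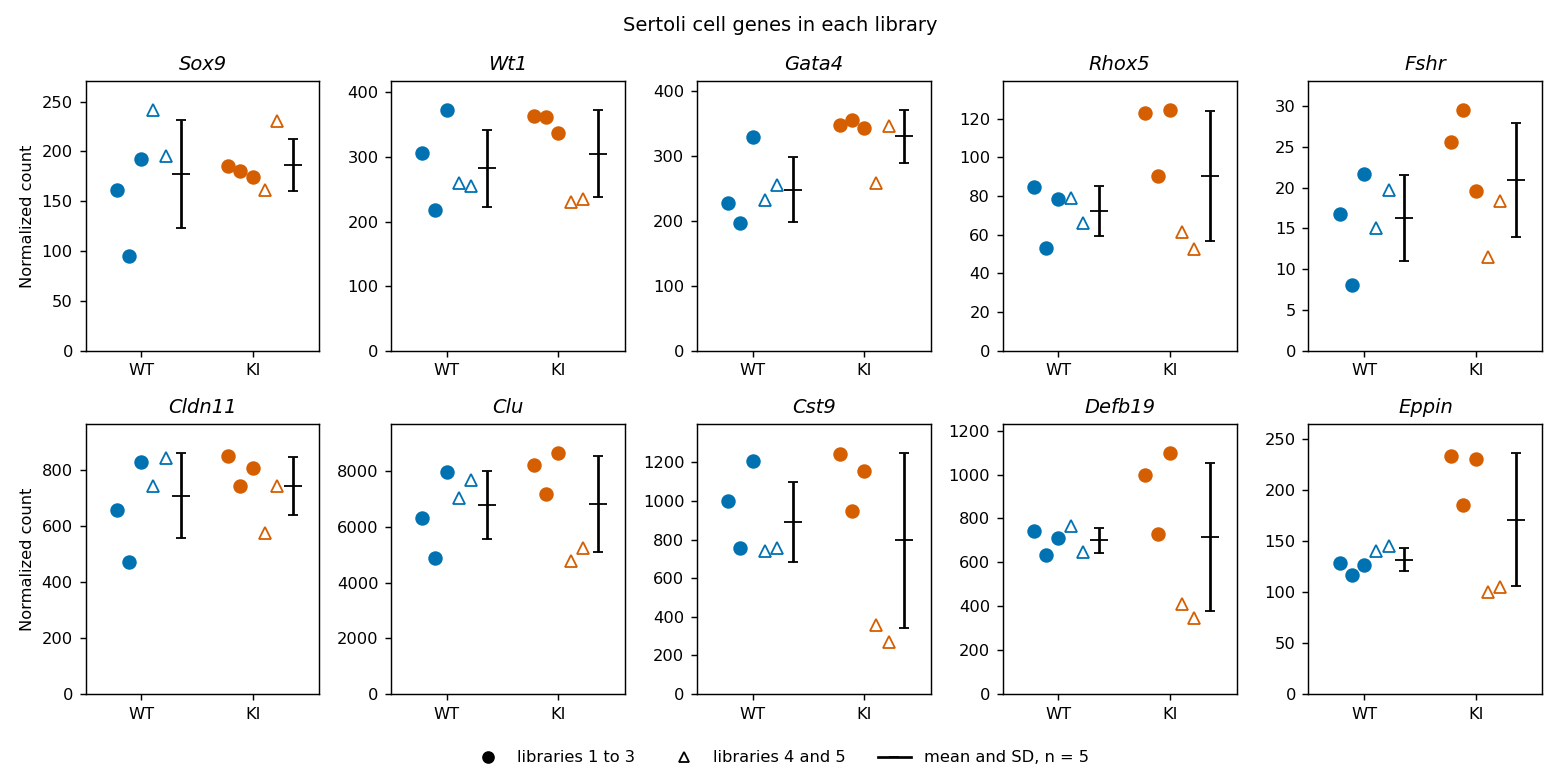
Normalized counts (y axis, from 0) of the 10 Sertoli genes in each WT and KI library, with filled circles for libraries 1 to 3, open triangles for libraries 4 and 5, and a bar for the mean and SD of 5 libraries. For Cst9, Defb19 and Eppin the KI triangles lie below all other points. For Sox9 the points of both genotypes are mixed, and the WT triangles lie above the WT circles.

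Among the identity regulators, Sox9 (chr11:112782210-112787758, plus strand), an HMG-box factor, did not separate the genotypes. Its normalized counts were 161, 94.8, 192, 241.7 and 196 in WT libraries 1 to 5 and 186, 181, 174, 162 and 231 in KI libraries 1 to 5. WT library 2 was lowest and WT library 4 highest, so that the KI libraries lay inside the WT range. The means were 177 ± 54.3 (SD, n = 5) in WT and 187 ± 26.4 in KI, with a log2 fold change of 0.13 (SE 0.20). The difference was 0.33 (SE 0.20) in libraries 1 to 3 and −0.17 (SE 0.22) in libraries 4 and 5.

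Wt1 (chr2:105126529-105173615, plus strand), a zinc finger factor, gave 305, 219, 372, 259.8 and 255 in WT and 363, 362, 337, 229.8 and 235 in KI. KI libraries 4 and 5 were below every WT library except WT library 2. The log2 fold change was 0.11 (SE 0.17), made up of 0.28 (SE 0.15) in libraries 1 to 3 and −0.15 (SE 0.18) in libraries 4 and 5. Gata4 (chr14:63198914-63245272, minus strand), a GATA factor, gave 227, 197, 329.7, 233 and 255 in WT and 348, 355, 343, 258 and 347 in KI. Here 4 KI libraries were above all WT libraries and KI library 4 was below WT library 3. Its means were 248 ± 50.1 (SD, n = 5) and 330.1 ± 40.7, with a log2 fold change of 0.42 (SE 0.14). It was the only gene of the 10 with a positive value in both sets, 0.51 (SE 0.15) in libraries 1 to 3 and 0.29 (SE 0.20) in libraries 4 and 5. All 8 Leydig markers described below were also above 0 in both sets, with medians of 0.48 and 0.85. The part of Leydig RNA in the Gata4 values was not tested.

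Rhox5 (chrX:37754608-37808879, plus strand) gave 84.7, 53.2, 78.5, 79.2 and 65.9 normalized counts in WT and 123, 90.4, 125, 61.5 and 52.4 in KI. All 3 KI libraries numbered 1 to 3 were above every WT library, and KI libraries 4 and 5 were below WT libraries 4 and 5. The log2 fold change was 0.65 (SE 0.20) in libraries 1 to 3 and −0.34 (SE 0.27) in libraries 4 and 5, and these came to 0.25 (SE 0.24) over all libraries. Fshr (chr17:88984952-89200676, minus strand) was the lowest of the 10, with 16.7, 8.09, 21.7, 15.0 and 19.8 in WT and 25.7, 29.5, 19.6, 11.5 and 18.4 in KI. Its log2 fold change was 0.35 (SE 0.31) over all libraries. It was 0.73 (SE 0.36) in libraries 1 to 3 and −0.23 (SE 0.47) in libraries 4 and 5. These errors within the sets were the widest of the 10. The value in WT library 2 was that of 7 reads.

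Cldn11 (chr3:31149920-31164327, plus strand), the tight junction gene, gave 657, 473, 827, 742 and 844 in WT and 849.5, 742, 808, 574 and 742 in KI. WT library 2 was lowest and KI library 4 next, and the other libraries of both genotypes were mixed. The log2 fold change was 0.09 (SE 0.15), with 0.33 (SE 0.14) in libraries 1 to 3 and −0.28 (SE 0.17) in libraries 4 and 5.

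Of the 4 secreted genes, 3 held the largest differences between the sets. Clu (chr14:65968483-65981549, plus strand) gave 6328, 4899.9, 7981, 7047 and 7677 in WT and 8228, 7172, 8650.4, 4793 and 5253 in KI, so that KI libraries 4 and 5 stood with WT library 2 at the bottom. Its means of 6787 ± 1231 (SD, n = 5) and 6819 ± 1734 gave a log2 fold change of −0.01 (SE 0.17), which came from 0.35 (SE 0.13) in libraries 1 to 3 and −0.55 (SE 0.14) in libraries 4 and 5. The sign over all libraries turned with the scaling, to 0.22 with library totals and 0.08 with the upper quartile.

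Cst9 (chr2:148835147-148838738, plus strand) gave 999, 755, 1209, 741 and 758 in WT and 1245, 949, 1154, 359.6 and 269.6 in KI. KI libraries 4 and 5 were below every other library, and KI libraries 1 to 3 lay within or above the range of WT libraries 1 to 3. The log2 fold change of −0.39 (SE 0.36) over all libraries held 0.19 (SE 0.14) in libraries 1 to 3. In libraries 4 and 5 it was −1.26 (SE 0.18), and there the KI mean was 0.42 times the WT mean. Defb19 (chr2:152576086-152580313, minus strand) gave 743, 634, 713, 763 and 645 in WT and 999, 728, 1098, 411 and 346 in KI. The WT libraries were close to each other, with a mean of 699 ± 58.0 (SD, n = 5), and the KI libraries spread on both sides of them, with a mean of 716 ± 338. Its log2 fold change was −0.11 (SE 0.26), or 0.12 with library totals, and it was 0.42 (SE 0.12) in libraries 1 to 3 and −0.89 (SE 0.17) in libraries 4 and 5.

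Eppin (chr2:164588343-164593572, minus strand) gave 129, 117, 127, 140.4 and 145 in WT and 234, 186, 231, 100.01 and 105 in KI. All KI libraries numbered 1 to 3 were above every WT library and both numbered 4 and 5 were below every WT library. Eppin and Rhox5 thus took opposite sides of WT in the sets without overlap, as did 1.23% of all genes and 3 of 42 other Sertoli genes. In libraries 1 to 3 the KI mean was 1.75 times the WT mean and in libraries 4 and 5 it was 0.718 times. The log2 fold change was 0.79 (SE 0.14) in the former, −0.47 (SE 0.22) in the latter and 0.29 (SE 0.22) over all libraries.

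**Figure D2:**
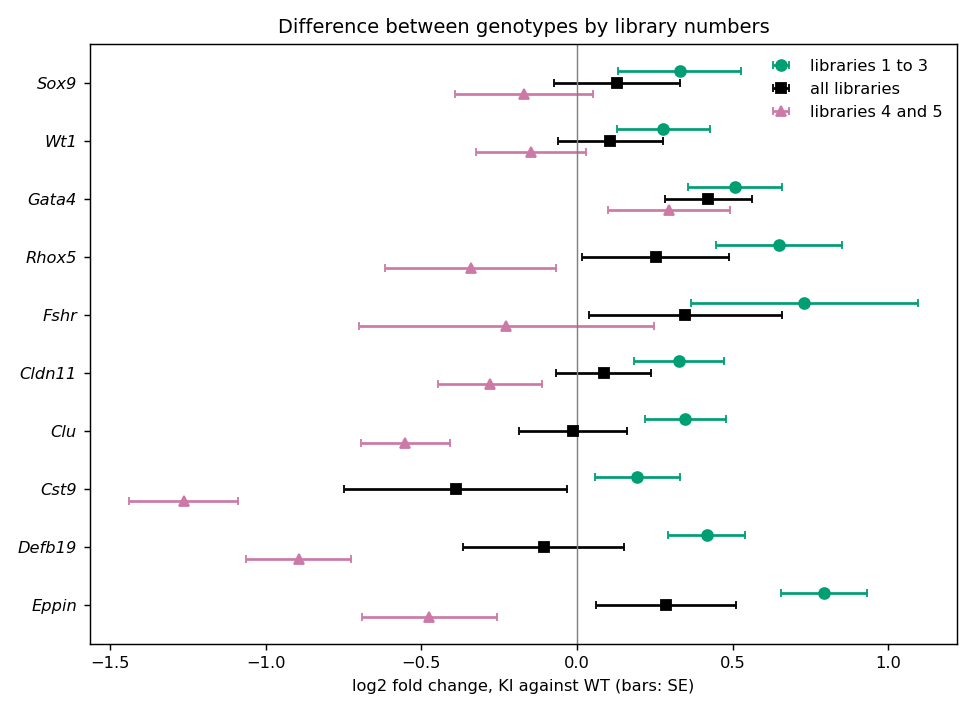
Log2 fold change of KI against WT (x axis) for the 10 Sertoli genes in libraries 1 to 3 (circles), in all libraries (squares) and in libraries 4 and 5 (triangles), with bars for the SE. The triangles lie left of the circles for all 10 genes, with the widest gaps for Cst9, Defb19 and Eppin, and Gata4 stays right of 0 in both sets.

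In libraries 1 to 3 alone Eppin and Rhox5 met the threshold for a call, as higher in KI, where 7.15% of all genes were called higher. In libraries 4 and 5 alone Cst9 and Defb19 met it, as lower in KI, where 7.06% were called lower. Both counts use the contrast with which the genes were chosen, and nothing is read from them. KI did not overlap with WT and was higher for 3 genes in libraries 1 to 3 (Gata4, Rhox5 and Eppin, beside 20.4% of all genes). It was lower without overlap for 7 genes in libraries 4 and 5 (Wt1, Rhox5, Cldn11, Clu, Cst9, Defb19 and Eppin, beside 26.8%). WT library 2 was the lowest WT library for 9 of the 10 genes. Without it, all 10 genes were still above 0 in libraries 1 to 3, as were 51.1% of all genes. The median then fell to 0.26, with values from 0.01 for Cst9 to 0.75 for Eppin. Eppin alone of the 10 met the threshold, beside 15.2% of all genes called either way.

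The difference between the sets in the genotype effect was the log2 fold change in libraries 4 and 5 minus that in libraries 1 to 3. It was below 0 for all 10 genes, beside 49.4% of all genes, with a median of −0.93 beside 0.01. The values ran from −0.21 (SE 0.26) for Gata4 through −0.43 (SE 0.24) for Wt1, −0.50 (SE 0.33) for Sox9, −0.61 (SE 0.25) for Cldn11, −0.90 (SE 0.21) for Clu, −0.96 (SE 0.59) for Fshr and −0.99 (SE 0.33) for Rhox5. The 3 lowest were −1.27 (SE 0.23) for Eppin, −1.31 (SE 0.21) for Defb19 and −1.46 (SE 0.24) for Cst9, and these 3 met the threshold, which 0.247% of all genes did. With the library number as a block Clu and Rhox5 met it too, making 5 of the 10, beside 3.32% of all genes. Without the block, none of the 10 met it when WT library 2, WT library 4, KI library 1 or KI library 3 was left out. These values and counts are a description and no support for the pattern, since they rest on the contrast that chose the genes. The 5th and 95th percentiles over all genes were −0.74 and 0.57.

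**Figure D3:**
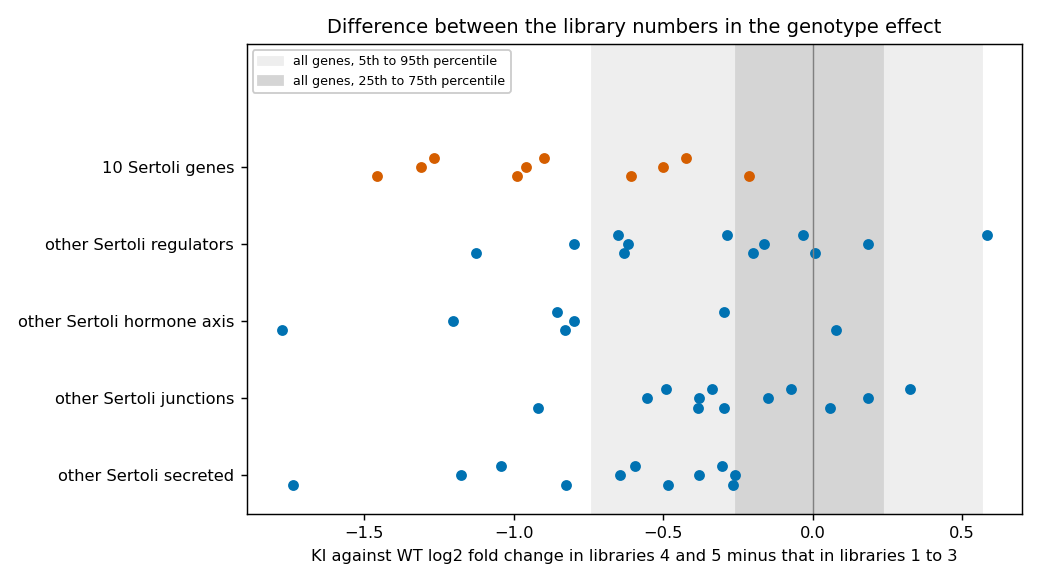
Log2 fold change of KI against WT in libraries 4 and 5 minus that in libraries 1 to 3 (x axis), for the 10 Sertoli genes and for other Sertoli genes in 4 lists by role (rows, 1 point per gene), over grey bands for all genes. All 10 genes lie below 0 and 6 lie below the 5th percentile of −0.74, and all 11 other secreted genes also lie below 0.

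Libraries 4 and 5 were also compared with libraries 1 to 3, with genotype as a term. This is another contrast than KI against WT, but these sets were named together with the genes, so its p-values are no independent support for the pattern within KI. Cst9 was lower in libraries 4 and 5 by limma, with a log2 difference of −1.10 (SE 0.21, adjusted p = 0.00177), and so was Defb19 with −0.64 (SE 0.19, adjusted p = 0.0240). These 2 of 10 genes were called, beside 5.71% of all genes called either way and 4.15% called lower. Wt1 had a difference of −0.39 (SE 0.13, limma adjusted p = 0.0403), short of the fold threshold, while 21.5% of all genes had an adjusted p under 0.05. Rhox5 with −0.47 (SE 0.20) and Eppin with −0.43 (SE 0.19) had limma adjusted p of 0.113 and 0.114. The other 5 genes gave −0.24 for Fshr, −0.22 for Clu, −0.11 for Gata4, 0.01 for Cldn11 and 0.35 for Sox9, with limma adjusted p from 0.169 to 0.964. Cst9 was called in 20 of 20 alternatives, with differences from −1.27 to −0.85. With the library number as a block the limma adjusted p was 0.00301 for Cst9, 0.0343 for Defb19 and 0.0527 for Wt1. Defb19 lost its call with DESeq2 (adjusted p = 0.106) and without KI library 1, 3, 4 or 5 (limma adjusted p = 0.0665, 0.0540, 0.0967 and 0.0974). Rhox5 was called without WT library 2 (−0.60, limma adjusted p = 0.0238) or without WT library 4 (−0.63, limma adjusted p = 0.0369).

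For Cst9, Defb19, Eppin and Rhox5 the shift between the sets was larger within KI than within WT. Within KI the difference of mean log2 values was −1.83 for Cst9, −1.30 for Defb19, −1.07 for Eppin and −0.96 for Rhox5. Within WT the same differences were −0.37, 0.01, 0.20 and 0.03. KI libraries 4 and 5 were below KI libraries 1 to 3 without overlap for 8 of the 10 genes (24.7% of all genes), all except Sox9 and Gata4. No gene of the 10 had WT libraries 4 and 5 below WT libraries 1 to 3 without overlap (20.9%). For Cst9 the means were 988 and 749 normalized counts in WT libraries 1 to 3 and 4 to 5, and 1116 and 315 in KI.

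**Figure D4:**
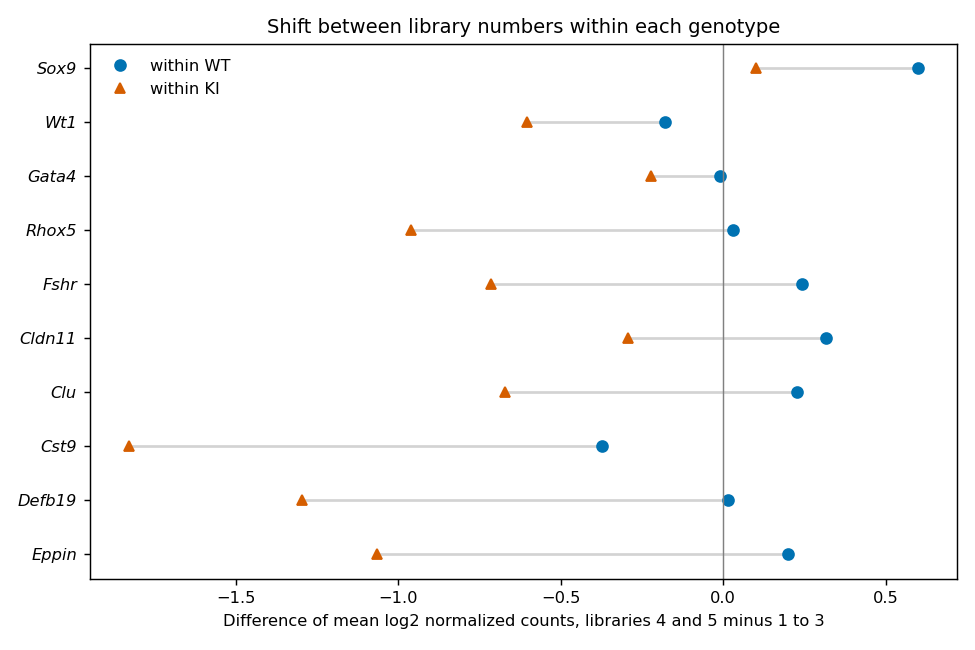
Mean log2 normalized count in libraries 4 and 5 minus that in libraries 1 to 3 (x axis) for each Sertoli gene, within WT (circles) and within KI (triangles), joined by a line. The triangle lies left of the circle for all 10 genes, and only Sox9, at 0.10, has its KI triangle above 0.

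Per kilobase of exon, the secreted genes Clu, Defb19 and Cst9 had the highest levels in WT. Clu had 1975 ± 358 normalized counts per kb (SD, n = 5), Defb19 1775 ± 147 and Cst9 1299 ± 301, and neighbours among these overlapped. Cldn11 with 379 ± 81.0, Eppin with 169 ± 14.5 and Rhox5 with 95.9 ± 16.9 were each apart from the gene before. Gata4 with 63.6 ± 12.8, Wt1 with 45.5 ± 9.52 and Sox9 with 42.8 ± 13.1 overlapped with their neighbours, Gata4 also with Rhox5. Fshr was apart and lowest, with 6.90 ± 2.23. The regulators and the receptor thus closed the order.

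Across the 10 libraries the 45 pairs of these genes had Pearson correlations of log2 values with a median of 0.65, and 43 were above 0. The highest was 0.93 for Defb19 with Cst9, and Eppin with Rhox5 had 0.91. The lowest was −0.15 for Cst9 with Sox9. All pairs share the same 10 libraries and their scaling, and the values are a description. The genes most like each one among 12325 others were Wfdc10 and Crlf3 for both Rhox5 (0.93 and 0.97) and Eppin (0.94 and 0.93), Rps3a1 for Cst9 (0.97), and 4921511M17Rik and Samt1 for Defb19 (both 0.94). They were Ctsl (0.96) and Cyb5r1 (0.94) for Clu, Selenoh and Sept9 for Cldn11 (both 0.94), Hdac6 (0.93) for Fshr, and Sema6c (0.95) and Sdc4 (0.94) for Sox9. For Wt1 they were Hprt (0.98) and Cmas (0.96), and for Gata4 Pfkl and Maged1 (both 0.96). Of the genes named here as most like, Ctsl alone is on the Sertoli lists.

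Of 48 other Sertoli genes listed by role, 42 were measured and tested, and 6 (Inhba, Rarb, Gdnf, Fgf2, Defb25 and Wfdc8) were not analysed here. Over all libraries 1 was called higher in KI and 2 lower, beside 6.13% and 8.22% of all genes, with a median log2 fold change of 0.10. Thra, a thyroid hormone receptor, rose from 88.2 ± 13.4 (SD, n = 5) to 159 ± 22.3 (log2 fold change 0.85, limma adjusted p = 6.46e-04). Cldn3, a claudin of newly formed junctions, fell from 873 ± 205 to 172 ± 27.3 (−2.32, limma adjusted p = 6.83e-08). Cyp19a1, the aromatase that makes oestrogen and that germ cells also express, fell from 35.0 ± 6.93 to 9.99 ± 3.60 (−1.75, limma adjusted p = 2.20e-04). In libraries 1 to 3 and in libraries 4 and 5 the log2 fold changes were −2.40 and −2.21 for Cldn3 and −1.78 and −1.70 for Cyp19a1. For Thra they were 0.97 and 0.67, and Thra was not called in libraries 4 and 5 alone (limma adjusted p = 0.0939).

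The sets parted the other Sertoli genes in the direction seen for the 10. In libraries 1 to 3, 8 of 42 were called higher in KI and 2 lower, beside 7.15% and 8.69% of all genes, with a median of 0.31. In libraries 4 and 5, limma called 0 higher, with 1 at an unadjusted p under 0.05, and 4 lower, beside 3.07% and 7.06%, with a median of −0.19. The difference between the sets was below 0 for 35 of 42, beside 49.4% of all genes, and 24 were above 0 in libraries 1 to 3 and below it in libraries 4 and 5, beside 16.5%. By limma 0 of the 42 were called for that difference, although 18 had an unadjusted p under 0.05, and edgeR called 0 and DESeq2 4. With the library number as a block, limma called 9 of 42, all below 0, beside 3.32% of all genes. Among them Ctsl had −1.04 (limma adjusted p = 0.00614) and Inha −0.86 (limma adjusted p = 0.0184). Amhr2 had −0.80 (limma adjusted p = 0.0242) and Aard −0.59 (limma adjusted p = 0.0441). Without the block the limma adjusted p was 0.0533 for Ctsl, 0.0978 for Inha, 0.106 for Amhr2 and 0.157 for Aard. Pairing of libraries by number, which the block assumes, was not shown.

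By role, all 11 of the other secreted genes were above 0 in libraries 1 to 3 and 9 were below 0 in libraries 4 and 5, with a median difference between the sets of −0.59. Ctsl, a cathepsin that Sertoli cells release, had 2229 ± 385 in WT and 2275 ± 763 in KI (log2 fold change −0.02, limma adjusted p = 0.954), with 0.39 and −0.65 in the sets. Aard had 0.61 and 0.02 (0.37 over all libraries, limma adjusted p = 0.188). The 7 genes of the hormone axis had a median difference between the sets of −0.83. They included Inha, a subunit of inhibin, with 0.44 and −0.41, and Amhr2, the receptor for anti-Müllerian hormone, with 0.36 and −0.44. Their limma adjusted p over all libraries were 0.724 and 0.881. The 12 junction genes had a median difference of −0.32, with the scaffold gene Tjp1 at −0.05 and 0.28 and the cadherin Cdh2 at 0.21 and 0.14. The 12 other regulators had a median of −0.24. Among them Dmrt1 had a log2 fold change of −0.11 (limma adjusted p = 0.611), and Nr5a1, which steroid-making cells also use, had 0.50 (limma adjusted p = 0.0306), short of the fold threshold.

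Libraries 4 and 5 against 1 to 3 called 1 of the 42 genes higher and 3 lower, beside 1.55% and 4.15% of all genes. The falls included Cst12, a cystatin gene like Cst9, with a log2 difference of −0.85 (limma adjusted p = 0.00459), and Tsx with −0.91 (limma adjusted p = 2.11e-04). The others were Nr0b1 with −0.60 (limma adjusted p = 0.0465) and the claudin gene Cldn5 with 0.63 (limma adjusted p = 0.0212). These 4 genes were chosen after their values were seen.

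Markers of other cells moved with genotype and with the sets beside these values. Over all libraries 6 of 8 spermatid markers were called lower in KI, with Prm2 at −3.30 (limma adjusted p = 3.25e-07), and their sum was 179843 to 333373 in WT and 23042 to 54439 in KI. Of 8 Leydig markers 4 were called higher, with Insl3 at 0.82 (limma adjusted p = 0.00551), as were 6 of 9 macrophage markers, with C1qc at 0.96 (limma adjusted p = 0.00258), and 2 of 6 endothelial markers, with Vwf at 1.05 (limma adjusted p = 0.00211). Of 7 peritubular myoid markers 3 were called higher and 1 lower, Actg2 at −1.37 (limma adjusted p = 1.25e-05). Of 8 spermatogonial and 8 spermatocyte markers 0 were called by limma, edgeR or DESeq2, with 2 of each at an unadjusted p under 0.05 by limma. Gfra1 was at −0.48 (limma adjusted p = 0.0202) and Spo11 was at −0.41 (limma adjusted p = 0.0232). Of 8 epididymal markers 2 were measured, Rnase10 at −0.22 (limma adjusted p = 0.228) and Crisp1, which ranged from 0 to 43.9 normalized counts with its highest value in WT library 2.

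Between the sets, the sum of the 9 Sertoli genes without Clu was 3624 to 4372 in KI libraries 1 to 3 and 2167 to 2345 in KI libraries 4 and 5, while WT libraries spanned 2549 to 3870. The spermatid sum was 269725 to 333373 in WT libraries 1 to 3 and 179843 to 193437 in WT libraries 4 and 5, and in KI it was 47212 to 54439 and 23042 to 37430. The spermatocyte sum was 22026 to 26599 and 20352 to 21464 in WT, and 21713 to 22995 and 18343 to 18750 in KI. The Leydig sum was 23185 to 27283 in KI libraries 1 to 3 and 15952 and 27049 in KI libraries 4 and 5, and the macrophage sum 1222 to 1401 and 1190 and 1559. The peritubular myoid sum was 1657 to 1674 in KI libraries 1 to 3 and 1204 to 1425 in KI libraries 4 and 5, and it was 3617 to 4254 and 2787 to 2914 in WT. The endothelial sum was higher in KI libraries 4 and 5, at 616 to 828 against 434 to 466, and in WT it was 314 to 382 against 271 to 329. KI libraries 4 and 5 were thus below the other KI libraries in the Sertoli, spermatocyte, spermatid and myoid sums. They were above them in the endothelial sum, and the Leydig and macrophage sums overlapped. The myoid sum was mostly Actg2, with means of 3325 in WT and 1279 in KI. With genotype as a term, 6 of the 7 tested myoid markers were higher in libraries 4 and 5 than in 1 to 3. The other 1 was lower, and the median log2 difference was 0.17. The part of these shifts in the Sertoli values was not tested.

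**Figure D5:**
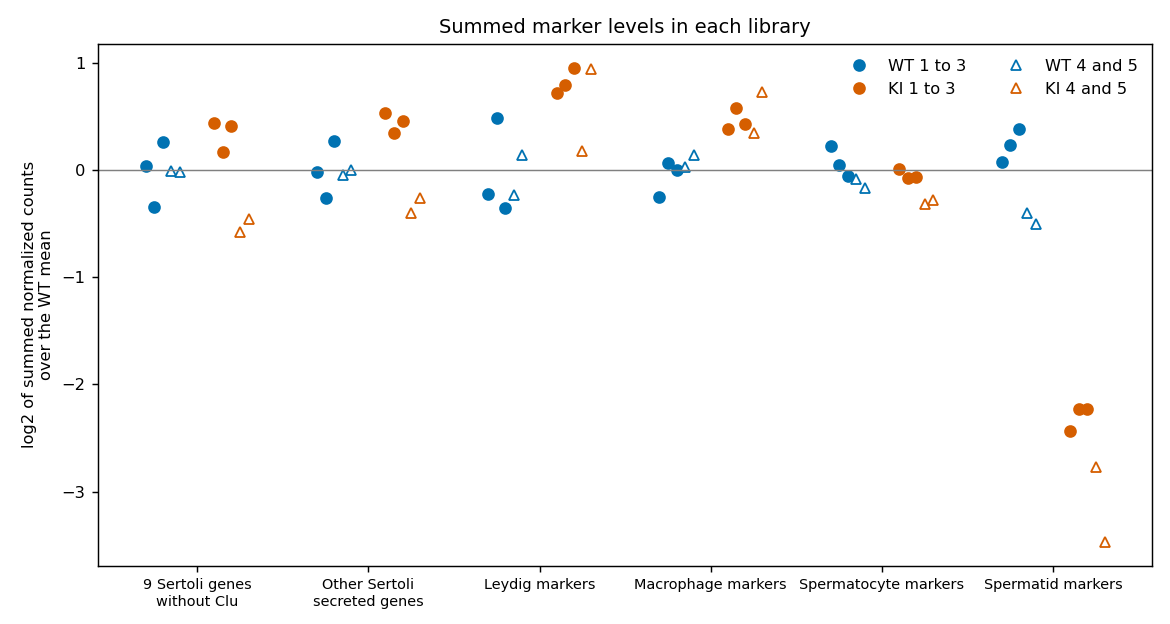
Summed normalized counts of marker lists in each library, as log2 of the sum over the WT mean of that list (y axis), for WT and KI libraries 1 to 3 (circles) and 4 and 5 (triangles). In KI libraries 4 and 5 the Sertoli, spermatocyte and spermatid sums lie below those of KI libraries 1 to 3, and the Leydig and macrophage sums of these libraries overlap.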

How the data were processed

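RNA of germ cells from 5 WT and 5 GRTH-KI mice was analysed, with 1 library per mouse. STAR alignment of adapter-trimmed reads to mm10 and gene counting by the Partek E/M model with RefSeq_v91 were done by the authors. The deposited values are a signal, namely counts divided by the DESeq2 size factor of each library. Dividing by the value of 1 read returned whole reads (within 0.1 read) for 100% of the values under 5000 reads, so the depth of each library is known and 3 reads are the floor for a value of 0. No column was left unassigned (0 columns).

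Differences were tested with limma (version 3.58.1, R 4.3.3) with a variance trend on log2(value + 1), with Benjamini-Hochberg adjustment over the 15389 genes kept by filterByExpr (edgeR, version 4.0.16) for the genotype groups. Genes were called at an adjusted p under 0.05 and a fold change of at least 1.5. The designs were genotype alone, genotype with number set (libraries 4 and 5 against 1 to 3), and the interaction of both, which was added after seeing the data. The 10 genes and all lists were chosen with earlier results of these data known. For the 10 genes the genotype contrast and the interaction are a description without p-values, and how many met the threshold is given only beside the share of all genes.

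Genes named are the 10, the 2 of highest mean in each other Sertoli list, every called gene of those lists (at most 4 per list, over all libraries), the 2 most correlated genes per Sertoli gene (mean of at least 50, of which 1 each for Cst9 and Fshr is not reported here), and the gene of largest fold change per marker list. Lengths are unions of GENCODE vM21 exons, and promoters are from RefSeq (GRCm38.p6). Alternatives were pseudocounts of 0.1 and 10, no filter, a mean of at least 50, library totals, upper quartile and TMM scaling, edgeR's quasi-likelihood test and DESeq2 (version 1.42.0) on the recovered reads, a replicate block (for the number set and the interaction added later, as a random effect by duplicateCorrelation of limma), a number term, each set alone, and leaving out each library.

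Residuals from the genotype means had r of 0.306, 0.105, 0.280, 0.216 and 0.462 between WT and KI libraries of the same number, 1 to 5. These residuals keep any shift between the sets that both genotypes share, and libraries of different numbers were not compared. The r values therefore cannot show pairing, and the number was used as a block only in alternatives. Libraries of a genotype differed with a chi-square of 2.66 to 46.7 per degree of freedom, so none was a duplicate. On simulated KI against WT data of 15413 genes with 200 changed 2-fold, 191 were recovered by limma, 194 by edgeR and 190 by DESeq2, each with 5 false calls. The simulation gave every gene the same dispersion and no difference between the sets. Its counts therefore do not give the error rates in the real libraries. Mice are the replicates, and counting error is the only error covered by the read floor.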

Additional observations from a re-analysis of the deposited data

Results flagged for a closer look

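Eppin and Rhox5 were picked out because every KI library lay above every WT library in libraries 1 to 3 and below every WT library in libraries 4 and 5. The difference between the sets in the KI against WT log2 fold change was −1.27 for Eppin and −0.99 for Rhox5. These differences are a description without p-values, since the genes were chosen with the genotype contrast known. Among all genes 1.23% had this order of libraries, as did 3 of 42 other Sertoli genes.

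Gata4 was picked out for KI library 4, whose normalized count of 258 stood apart from 343 to 355 in the other 4 KI libraries by Dixon's criterion. By chance about 1 of 20 groups meets this criterion.

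Tex101, a gene of spermatocytes and spermatids on the spermatocyte list, differed between the sets in its genotype effect by −0.85 (SE 0.14, limma adjusted p = 0.0259, and 0.00211 with the library number as a block).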

How the results depend on the processing

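Of the 10 Sertoli genes 0 were called between KI and WT in all alternatives except library totals, with 1 (Gata4, 0.65), libraries 1 to 3 alone and libraries 4 and 5 alone, with 2 each, and libraries 1 to 3 without WT library 2, with 1. The last alternative, the interaction and its block were added after seeing the data. The median log2 fold change of the 10 genes was 0.12. It became 0.38 in libraries 1 to 3 alone and −0.31 in libraries 4 and 5 alone. With library totals it was 0.35, beside 0.25 over all genes, and with the upper quartile 0.21, beside 0.12. Leaving out 1 library moved the median of the 10 between −0.02 (without WT library 2) and 0.19. The replicate block changed none of these calls between KI and WT, nor any count by over 1.5 times, with 1067 genes higher and 1343 lower in KI in place of 944 and 1265. Library totals gave 2145 higher and 789 lower, since the median of all genes moved from 0.03 to 0.25 and the share of called genes that were higher from 42.7% to 73.1% (55.8% with the upper quartile). A mean of at least 50 left 549 higher and libraries 4 and 5 alone 472. Other Sertoli genes called higher numbered 1, but 6 with library totals, 2 with the upper quartile, 8 in libraries 1 to 3 alone, 0 in libraries 4 and 5 alone and 1 to 3 when a library was left out (3 without KI library 4). Those called lower numbered 2, but 1 with a mean of at least 50 (fewer genes tested) and 4 in libraries 4 and 5 alone. In libraries 4 and 5 against 1 to 3, 2 of the 10 genes were called, 2 with the replicate block, 1 with DESeq2, and 1 to 3 when a library was left out.

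The interaction called 38 genes, with 511 under the replicate block (5 of the 10 Sertoli genes and 9 other Sertoli genes), 39 by edgeR, 154 with library totals, 23 with the upper quartile and 234 with DESeq2, and 2 to 431 when a library was left out, the lowest without WT library 2, WT library 4 or KI library 3 and the highest without KI library 4. Leaving out a library numbered 4 or 5 left 1 library in an arm, which was assumed to vary like the others. Of the 10 Sertoli genes it called 3, and 0 to 4 when a library was left out. Of the other Sertoli genes it called 0, but 1 with a pseudocount of 10, 2 with library totals, 4 with DESeq2 and 0 to 7 when a library was left out (7 without WT library 3). The causes of these changes were not tested. Fshr, with 191 reads in all, is the gene limited by depth, and it has no value at a mean of at least 50.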
